A study of Mus musculus with 10 samples.

Results

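Retinoic acid is made from vitamin A in successive oxidation steps, is bound in the cytoplasm by carrier proteins, and acts in the nucleus through retinoic acid receptors that sit on DNA as dimers with retinoid X receptors. Enzymes of the CYP26 family oxidise and clear it, so that the supply and the clearance of the ligand together set how much of it a cell holds. In mouse embryos the pathway patterns the early mesoderm and the body axis, and retinoic acid made by ALDH1A2 is needed for blood formation from hemogenic endothelium.

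Expression of 9 genes of this pathway was followed through the differentiation of mouse ES cells into blood progenitors. The genes were chosen by name and all 9 were found among the 55487 genes of the count tables. They cover synthesis (Aldh1a2), the reversal of the first oxidation step (Dhrs3), degradation (Cyp26a1 and Cyp26b1), intracellular binding (Crabp1 and Crabp2) and the 3 retinoic acid receptors (Rara, Rarb and Rarg). All 9 passed the filter on low counts that left 22596 genes to be tested, Rarb and Crabp1 with 2 and 1 counts in their lowest libraries. Cyp26a1 peaked in HB, Rarg was highest in ES, Dhrs3 and Cyp26b1 rose into the hemogenic endothelium, and Rara was lowest in the CD41+ stages, as described gene by gene below.

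Nuclear RNA was sequenced from 5 stages with 2 libraries each, all of them derived from HM-1, a single mouse ES cell line. The stages were undifferentiated ES cells kept with LIF, hemangioblast cells (HB) sorted for FLK1 from embryoid bodies after 3 days, the first and second stages of the hemogenic endothelium (HE1 and HE2) and hematopoietic progenitors (HP). HE1, HE2 and HP came from blast culture of the FLK1+ cells and were sorted as KIT+ TIE2+ CD41-, KIT+ TIE2+ CD41+ and KIT+ TIE2- CD41+ cells, respectively. All media contained fetal calf serum, and no retinoid is named among the additives. The blast medium also held D4T conditioned medium, VEGF and IL6, which are not named for ES cells or embryoid bodies. HE1 against HB therefore also spans a change of medium. The retinoid content of the serum and of the conditioned medium is not given in the sources used here. The study calls the replicates of its expression values in these cell types biologically independent, and the labels do not say how they were separated. The p-values measure the spread between the 2 libraries of a stage. In these bulk samples, fewer cells of a type and less RNA per cell cannot be told apart.

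The libraries held between 24920434 and 58782055 counts, and the log2 levels of 2 libraries of a stage correlated with Pearson's r from 0.967 in HE1 to 0.994 in ES across genes. Of the 4 genes for the antigens of the sorts, 3 rose into the stage sorted for them: Kdr, which encodes FLK1, rose from a mean of 2.56 CPM (counts scaled by the size of the library) in ES to 1120 at HB, Tek (TIE2) had 429 CPM at HE1 and 62.8 at HP, and Itga2b (CD41) rose from 177 at HE1 to 487 at HE2. Kit did not follow the sorts in this way, with 168 CPM in ES, 71.3 at HB, 110 at HE1, 320 at HE2 and 307 at HP, so that ES lay above the KIT+ cells of HE1. Itga2b was not absent from the CD41- sort. The summed level of 8 pluripotency markers was 3548 to 3589 CPM in ES, 464 to 470 at HB, 48.2 and 124 at HE1, 11.1 to 22.4 at HE2 and 10.4 to 14.2 at HP, with none of them at 3 counts or fewer in any library. The second HE1 library stood apart from the first. It held more of the pluripotency markers, of 5 cardiac muscle markers (86.0 against 22.1 CPM) and of 6 smooth muscle and mesenchyme markers (1668 against 853 CPM). It held less of 8 endothelial markers (2157 against 3715 CPM) and of 4 erythroid markers (229 against 475 CPM). Of 4 neural markers it held 76.1 against 29.8 CPM, mostly Tubb3 (2227 against 695 counts), with 2 of the 4 at 3 counts or fewer in the first library. Pax6 went the other way, with 6 against 14 counts. The HE2 libraries differed as well, the first holding more of the endothelial markers (2394 against 1470 CPM), of 5 endoderm markers (55.3 against 14.6) and of the pluripotency markers, and less of 4 macrophage markers (65.4 against 151) and of 8 blood progenitor markers (1249 against 1813). The part of other cells in the HE1 and HE2 values below was not tested. The calls for HE1 that were lost without the second HE1 library are named, for the 9 genes and for the other lists of the pathway.

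Sequence upstream of the start sites was compared first, because retinoic acid receptors are known to bind direct repeats of a 6-base half-site. Promoter windows of 250 bases before to 50 bases after the start were taken from RefSeq (GRCm38.p6), which matched 8 of the 9 genes. The half-sites AGGTCA and the variant AGTTCA, as well as GGGTCA and the variant GGTTCA, were searched on both strands, in any pairing, as a direct repeat with 5 bases between them (DR5). Such a repeat was found for Cyp26a1 and Rarb, 2 of 8 genes, and for 31 of 27025 genes (0.115%) over all promoters searched. The spacings of 2 and 1 bases (DR2 and DR1) were found for none of the 8 genes and for 0.311% and 0.263% of all genes. The following 2 stretches are shown because they hold the repeat, with the half-sites in capitals, 5′ to 3′ on the strand of the gene and ending 1 base before the start that RefSeq gives. These starts lie inside the genes as annotated for the counts, 10 bases from the first base of Cyp26a1 and 243680 bases from that of Rarb, so the window of Rarb is at an internal start of the gene. The first is chr19:37697716-37697807 on the plus strand, where the repeat reads on the opposite strand and is seen as its reverse complement, and the second is chr14:16575477-16575589 on the minus strand.
Cyp26a1: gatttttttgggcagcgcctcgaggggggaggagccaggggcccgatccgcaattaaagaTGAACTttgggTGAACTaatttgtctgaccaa
Rarb: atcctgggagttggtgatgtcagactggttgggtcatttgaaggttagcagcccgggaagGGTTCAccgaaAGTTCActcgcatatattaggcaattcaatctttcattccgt
The repeat of Cyp26a1 begins 32 bases before the start and that of Rarb 53 bases before it. These matches describe the sequence only. The genes were chosen by name from this pathway, so 2 of 8 beside 0.115% is no test of enrichment. As reported next, the 2 genes had very different levels: Cyp26a1 was the highest of the 9 in HB per length, and Rarb the lowest.

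Aldh1a2 encodes the main retinaldehyde dehydrogenase of the early embryo and lies at chr9:71215789-71296243 on the plus strand. Its level was 1.17 and 1.35 CPM in ES, 1.88 and 2.03 at HB, 0.168 and 1.22 at HE1, 0.305 and 0.127 at HE2 and 0.228 and 0.127 at HP. The HB libraries were the highest and did not overlap with those of ES, whereas the HE1 libraries lay 1 among the ES and 1 among the HE2 and HP values. In no comparison did Aldh1a2 pass the test: HB against ES gave a log2 fold change of 0.64 with an adjusted p of 0.496, HE2 against HE1 gave -1.70 with an adjusted p of 0.161, and HP against HE1 gave -1.95 with an adjusted p of 0.106 (edgeR quasi-likelihood test, Benjamini-Hochberg). Its counts from HE1 onwards were few, 4 to 37 per library, and the log2 fold change from HB to HE1 was -1.45 (adjusted p = 0.143). That change was called with limma-voom (-1.94, adjusted p = 0.04997) and without the second HE1 library (-3.51, adjusted p = 0.00923). Without the first HE1 library, HE2 against HE1 (-2.45, adjusted p = 0.0204) and HP against HE1 (-2.70, adjusted p = 0.00981) were called, whereas without the second both turned, to 0.36 and 0.11. HP against HE1 was also called without the filter on low counts (-1.94, adjusted p = 0.0251).

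Dhrs3 encodes a retinaldehyde reductase that turns retinaldehyde back into retinol, and lies at chr4:144892827-144928209 on the plus strand. Its level was 2.06 and 2.32 CPM in ES, 3.80 and 3.89 at HB, 14.0 and 20.6 at HE1, 31.1 and 39.7 at HE2 and 61.1 and 35.7 at HP. Each stage lay above the one before without overlap up to HE2, and the HE2 and HP libraries overlapped. The step from HB to HE1 was the largest, with a log2 fold change of 2.17 (SE 0.29, adjusted p = 0.000418), followed by HE2 against HE1 with 1.03 (SE 0.27, adjusted p = 0.0366). From ES to HB the adjusted p was 0.0497, but the change of 1.76-fold was under the 2-fold that a call required. HP was 2.79-fold higher than HE1 (adjusted p = 0.0037). The HE2 call was lost without the first or second HE1 library or the second HE2 library (adjusted p = 0.0757, 0.0635 and 0.238) and with scaling to total counts (0.0624) or only the 4 libraries compared (0.075). The HE1 and HP calls held without each library in turn. The 4 erythroid markers rose over the same stages, with summed levels of 6.38 and 7.01 CPM at HB, 475 and 229 at HE1, 1956 and 1554 at HE2 and 4222 and 2247 at HP, and all 4 were called higher at HE1 and again at HE2; their part in the level of Dhrs3 was not tested. In the study's lists of primed enhancers, which were chosen on these libraries and so are not independent of them, Dhrs3 is linked to elements of the HB to HE transition.

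**Figure D1:**
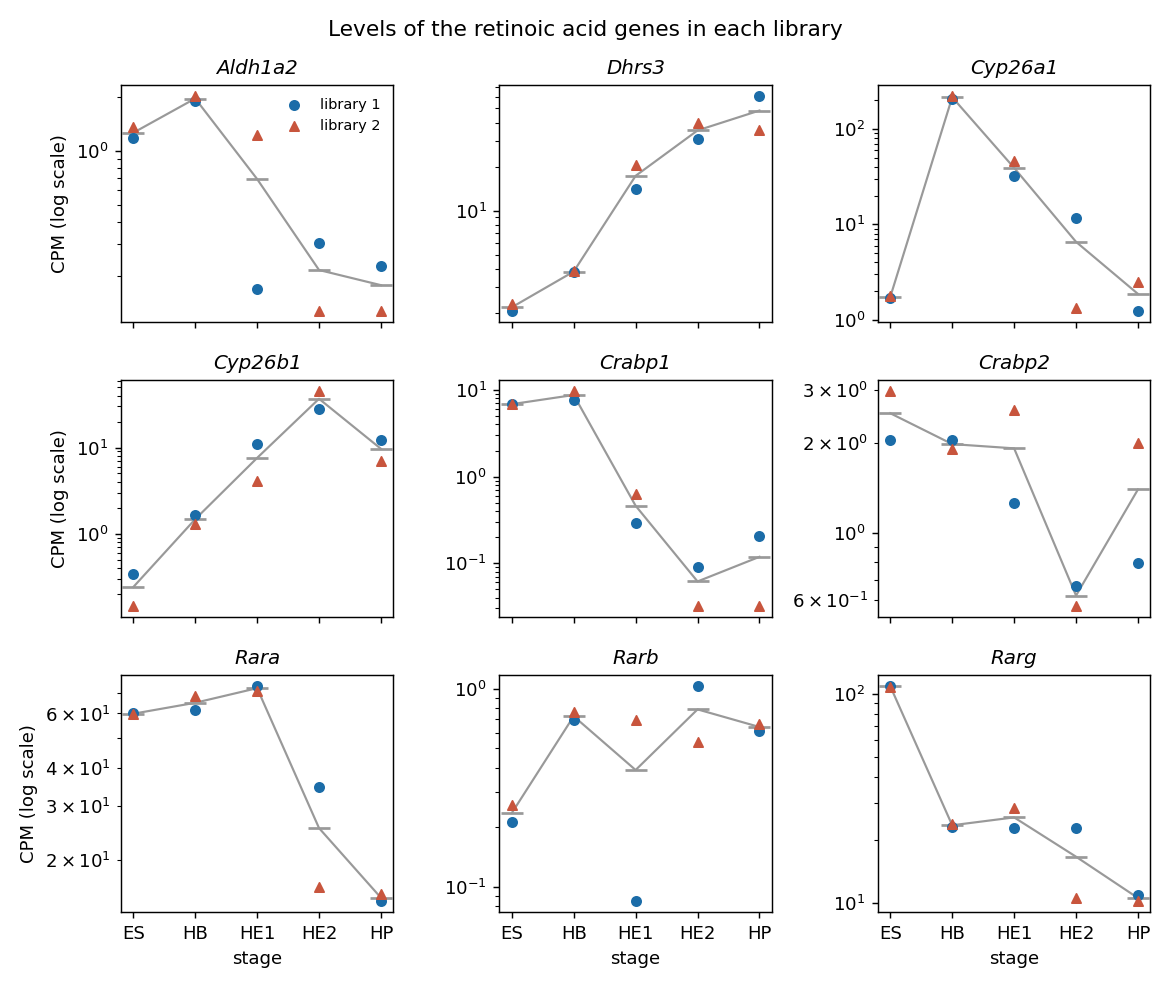
Level of each of the 9 genes in each library, in CPM on a log axis that differs between panels, over the 5 stages; circles and triangles are the first and second library of a stage, and the dash and line mark the mean of the 2. Cyp26a1 peaks in HB at 206 and 222 CPM, Dhrs3 has means of 2.19 in ES, 35.4 in HE2 and 48.4 in HP, with overlapping libraries in the last 2, and Rarg is highest in ES at 108 and 109 CPM.

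Cyp26a1 encodes the cytochrome P450 that clears retinoic acid in the early embryo, is known as a direct target of the receptors, and lies at chr19:37697798-37701536 on the plus strand. Its level was 1.70 and 1.78 CPM in ES, 206 and 222 at HB, 32.3 and 45.7 at HE1, 11.8 and 1.33 at HE2 and 1.23 and 2.51 at HP. Both HB libraries were far above every other, and by HP the level overlapped with that of ES. From ES to HB it rose 123-fold, a log2 fold change of 6.94 (SE 0.81, adjusted p = 8.62e-05), which placed its length-scaled level in HB above 98.0% of the genes tested. The 8 markers of the primitive streak and early mesoderm rose over the same step, all 8 of them called higher, from a summed 18.4 and 19.7 CPM in ES to 2410 and 2923 in HB, and their part in this change was not tested. Cyp26a1 then fell by 2.45 on the log2 scale from HB to HE1 (SE 0.64, adjusted p = 0.0151) and by 2.57 from HE1 to HE2 (SE 0.66, adjusted p = 0.0346). HP against HE1 gave a log2 fold change of -4.41 (adjusted p = 0.0023). Of the same 8 streak and mesoderm markers, 6 were called lower from HB to HE1 (median -5.21). The call from HB to HE1 was lost without the second HB library or either HE1 library (adjusted p = 0.0594, 0.0625 and 0.0529), with log2 fold changes between -2.27 and -2.72. The call from HE1 to HE2 was lost without the second HE1 library (adjusted p = 0.139) and with a fit of only the 4 libraries compared (0.0829), and the HE2 libraries differed from each other 8.84-fold. Its log2 fold change was -4.84 without the first and -1.71 without the second HE2 library, and -3.26 with limma-voom. HP against HE2 gave -1.84, which was not called with all libraries (adjusted p = 0.496), but was called without the filter on low counts (-1.85, adjusted p = 8.41e-13) and without the second HE2 library (-2.69, adjusted p = 0.00493), and turned to 0.45 without the first. Cyp26a1 is linked to a primed enhancer of the ES to HB transition in the study's list.

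Cyp26b1 encodes the second enzyme of this family, which clears retinoic acid mainly at later sites of the embryo, and lies at chr6:84571414-84593908 on the minus strand. Its level was 0.337 and 0.143 CPM in ES, 1.65 and 1.30 at HB, 11.1 and 4.06 at HE1, 28.1 and 45.6 at HE2 and 12.3 and 6.99 at HP. It was highest in HE2 without overlap, and the HE1 and HP libraries overlapped. It rose 5.69-fold from ES to HB, 5.12-fold from HB to HE1 and 4.88-fold from HE1 to HE2 (adjusted p = 0.00861, 0.00637 and 0.0175). The first of these calls was lost with limma-voom (adjusted p = 0.0735), the second without the second HB library (0.0627), and the third without the second HE1 or the second HE2 library (0.0759 and 0.129). Leaving out 1 library moved the log2 fold changes between 2.12 and 3.34, between 1.42 and 2.92, and between 1.73 and 3.21; the first was highest without the first ES library, and the second lowest and the third highest without the first HE1 library. HP against HE2 gave a log2 fold change of -1.93 that was not called (SE 0.47, unadjusted p = 0.00183, adjusted p = 0.169), and was called with DESeq2 (adjusted p = 0.0032) and without the filter on low counts (adjusted p = 1.15e-08).

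Both Cyp26 genes were then set side by side per length. Summed over the 2 genes, the level was 0.922 CPM per kilobase of exon in ES, 108 at HB, 21.1 at HE1, 10.2 at HE2 and 2.75 at HP. Cyp26a1 made up 95.1% ± 2.8 of this sum in ES, 99.7% ± 0.057 in HB and 92.8% ± 5.7 in HE1 (SD, n = 2). In HE2 its share was 53.1% in the first library and 7.31% in the second, and in HP it was 21.2% and 49.2%. The sum therefore passed from almost only Cyp26a1 to a mixture in which the 2 libraries of a stage disagreed on the share.

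**Figure D2:**
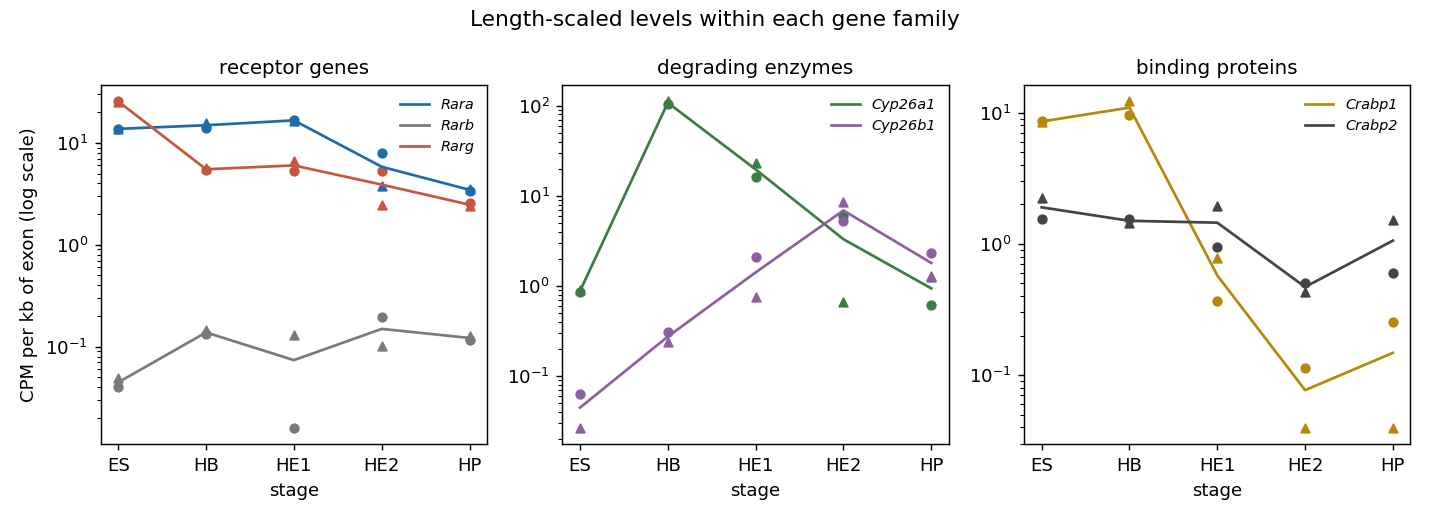
Level per kilobase of exon (CPM per kb, log axis) of the receptor genes, the Cyp26 genes and the Crabp genes over the 5 stages; points are libraries (circle first, triangle second) and lines join the stage means. Rarg leads the receptors in ES and Rara from HB on, Cyp26b1 reaches the level of Cyp26a1 only in HE2 and HP, and Crabp1 falls below Crabp2 from HE1 on.

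Crabp1, whose product is known to bring retinoic acid to its degradation, lies at chr9:54764748-54773110 on the plus strand and had 6.88 and 6.85 CPM in ES, 7.73 and 9.80 at HB, 0.294 and 0.627 at HE1, 0.0914 and 0.0317 at HE2 and 0.205 and 0.0318 at HP. The ES and HB libraries were all far above the later ones. It fell 18.5-fold from HB to HE1 (log2 fold change -4.21, SE 0.55, adjusted p = 0.000352), and this call held without each library in turn, at -4.88 without the second HE1 library. Over the same step 6 of 8 markers of the primitive streak and early mesoderm were called lower (median -5.21), and their part in this change was not tested. The further fall from HE1 to HE2 (log2 fold change -2.85, SE 0.78, adjusted p = 0.04) rested on 7 and 19 counts against 3 and 1. It was lost without the second HE1 or second HE2 library (adjusted p = 0.228 and 0.277) and with limma-voom (0.0659), and leaving out 1 library gave -2.18 without the second HE1 library to -3.73 without the first HE2 library. HP against HE1 gave a log2 fold change of -1.84 that was not called (adjusted p = 0.0672), and was called with DESeq2 (adjusted p = 0.0277), without the filter on low counts and without the first HE1 or the first HP library; leaving out 1 library gave -3.72 without the first HP library to -1.16 without the second HP or second HE1 library.

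Crabp2, whose product delivers the ligand to the receptors, lies at chr3:87948666-87953376 on the plus strand. Its level was 2.04 and 2.98 CPM in ES, 2.05 and 1.91 at HB, 1.26 and 2.57 at HE1, 0.670 and 0.571 at HE2 and 0.798 and 2.00 at HP. Only HE2 lay below every other stage, and Crabp2 passed the test in no comparison; HE2 against HE1 gave a log2 fold change of -1.63 with an adjusted p of 0.0711, which was called with DESeq2 (adjusted p = 0.0405), without the filter on low counts and without the first HE1 library. Within the summed length-scaled level of the pair, Crabp1 had a share of 81.9% ± 4.0 in ES and 87.8% ± 2.3 in HB, and of 28.2% ± 0.62 in HE1 (SD, n = 2).

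Rara encodes the receptor known to be expressed most widely and lies at chr11:98927818-98974942 on the plus strand. Its level was 60.1 and 59.7 CPM in ES, 61.6 and 68.4 at HB, 73.8 and 71.3 at HE1, 34.5 and 16.3 at HE2 and 14.7 and 15.5 at HP. The first 3 stages lay close together and both later stages below them. HE2 was 2.85-fold lower than HE1 (log2 fold change -1.51, SE 0.27, adjusted p = 0.0104) and HP was 4.81-fold lower (log2 fold change -2.26, SE 0.28, adjusted p = 0.000546). Both calls held under every other test and scaling and without each library in turn, although the HE2 libraries differed from each other 2.11-fold and HE2 against HE1 was -2.13 without the first and -1.06 without the second. HP against HE2 gave -0.75 and was not called (adjusted p = 0.428); it was -1.19 without the second HE2 library, which was called (adjusted p = 0.00694), and -0.12 without the first (adjusted p = 0.934). From ES to HB and from HB to HE1 the log2 fold changes were 0.12 and 0.16 and were not called (adjusted p = 0.762 and 0.672). In HP against HE1, 7 of 8 endothelial markers were called lower (median -2.66) and all 8 blood progenitor markers higher (median 4.04). Their part in the fall of Rara was not tested.

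Rarg, the receptor gene linked by earlier work to the early embryo and to ES cells, lies at chr15:102234938-102257517 on the minus strand. Its level was 109 and 108 CPM in ES, 23.0 and 23.9 at HB, 22.7 and 28.5 at HE1, 22.7 and 10.5 at HE2 and 10.9 and 10.1 at HP. The ES libraries stood alone at the top, the HB and HE1 libraries overlapped, and so did those of HE2 and HP. From ES to HB it fell 4.63-fold (log2 fold change -2.21, SE 0.29, adjusted p = 0.000185), a call that held under every alternative. HP was 2.43-fold lower than HE1 (adjusted p = 0.00969), which was lost without the second HE1 library or either HP library (adjusted p = 0.0622, 0.0602 and 0.0506). HE2 against HE1 gave -0.63 (adjusted p = 0.141) and HP against HE2 -0.66 (adjusted p = 0.597), neither of them called, and both rested on the HE2 library used. Without the first HE2 library the former was -1.26 (adjusted p = 0.00264) and the latter -0.0024 (adjusted p = 1), and without the second they were -0.16 (adjusted p = 0.683) and -1.10 (adjusted p = 0.0139). The pluripotency markers fell over the same step from ES to HB, 7 of 8 of them called lower, and their part in the value of Rarg was not tested.

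Rarb, which is known to be induced by retinoic acid itself in many cells, lies at chr14:16430839-16819156 on the minus strand and was near the limit of detection. Its level was 0.213 and 0.258 CPM in ES, 0.694 and 0.760 at HB, 0.0841 and 0.693 at HE1, 1.04 and 0.539 at HE2 and 0.616 and 0.667 at HP, from 2 to 34 counts per library. The ES libraries and the first HE1 library were the lowest, and the other stages overlapped or lay close together. Rarb passed the test in no comparison; HB against ES gave a log2 fold change of 1.63 with an adjusted p of 0.114, which was called in a fit of only the 4 libraries compared (1.67, adjusted p = 0.0084). HE1 against HB gave -0.85 (adjusted p = 0.403), and -3.06 (adjusted p = 0.0318) without the second HE1 library, which left only the 2 counts of the first. Its exons overlap those of Top2b on the opposite strand, which had 2541 to 15340 counts per library. The counting was strand-specific, and the part of Top2b in the counts of Rarb was not tested.

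The makeup of the receptor genes changed between ES and HB. Per length, Rarg made up 64.9% ± 0.044 of the summed level of the 3 genes in ES and Rara 35.0% ± 0.028 (SD, n = 2), whereas in HB Rara made up 72.5% ± 0.94 and Rarg 26.8% ± 0.94. In HE1 the shares were 73.3% and 26.4%, in HE2 59.1% and 39.4%, and in HP 57.1% and 40.8%. The stage means of Rarb stayed between 0.114% in ES and 2.01% in HP, with 0.0718% and 0.569% in the HE1 libraries. The sum of the 3 genes was 39.2 CPM per kilobase in ES, 20.5 at HB, 22.7 at HE1, 9.87 at HE2 and 6.05 at HP. The HE2 libraries differed, with sums of 13.4 in the first and 6.32 in the second.

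The calls were then read against all genes. From ES to HB, 2 of the 9 genes were called higher and 1 lower at the adjusted p of 0.05 with a minimum change of 2-fold, beside 11.5% and 17.3% of all genes tested. From HB to HE1, 2 were called higher and 2 lower, beside 12.7% and 8.19%. From HE1 to HE2, 2 were called higher and 3 lower, beside 3.26% and 5.38%, and the median log2 fold change of the 9 was -1.51 against -0.08 for all genes tested. Over the same step, 7 of 8 pluripotency markers (median -3.78) and 4 of 5 cardiac muscle markers (median -2.64) were called lower. In both lists the larger part of the HE1 level lay in the second HE1 library, with sums of 48.2 and 124 CPM and of 22.1 and 86.0 CPM. Nanog had 17 and 351 counts at HE1 and 17 and 12 at HE2, whereas Klf4 had 947 and 812 at HE1. Values of these markers without that library are not given here. All 8 blood progenitor markers were called higher (median 3.22). The part of the cells of these markers in the changes of the 9 genes was not tested. The balance of the calls over all genes in this comparison, 737 higher and 1216 lower, turned to 364 and 171 in a fit of only the 4 libraries compared. It turned to 368 and 260 without the second HE1 library and to 324 and 96 without the second HE2 library. Across the endothelial to hematopoietic transition, HP against HE1, 1 was called higher and 3 lower, beside 5.35% and 11.2%. For HP against HE2 no gene of the table was called (0 of 22596, or 0%). At an unadjusted p under 0.05, 4 of the 9 passed, namely Cyp26b1, Rara, Cyp26a1 and Rarg, all lower in HP, beside 1783 genes or 7.89% of the table, 670 of them higher and 1113 lower. Without the first HE2 library these were 959 higher and 425 lower, and Cyp26a1, Rara and Rarg were at 0.45, -0.12 and -0.0024. In this comparison limma-voom called 62 genes and DESeq2 301. The comparisons share stages, so their calls are not independent of each other.

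**Figure D3:**
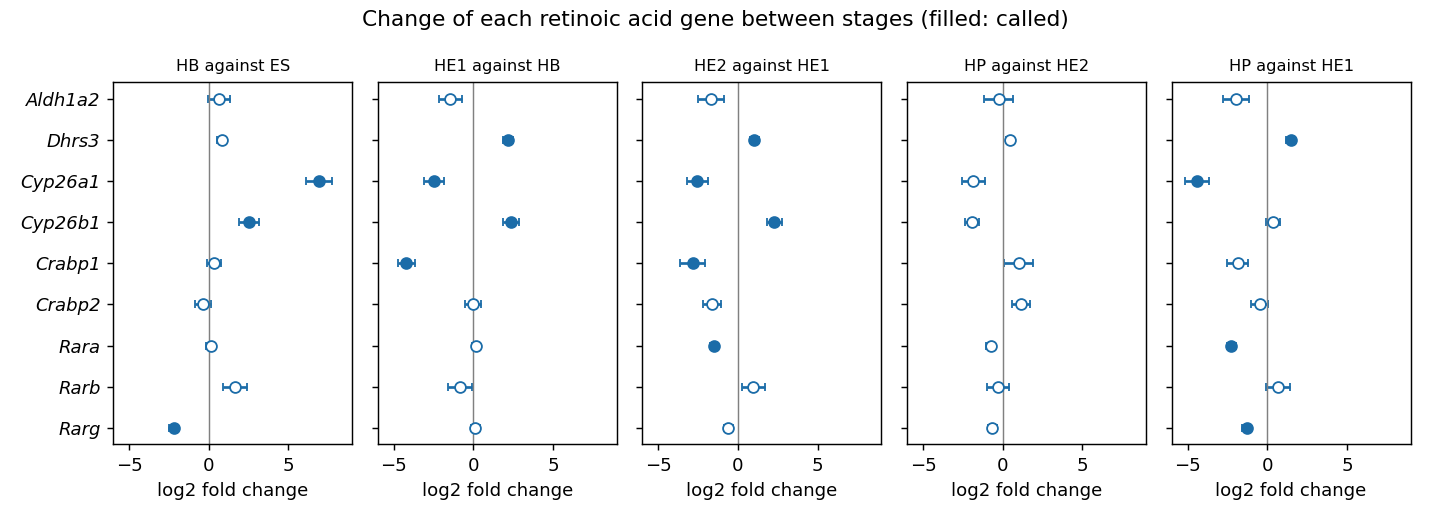
Log2 fold change of the 9 genes (x axis, ± SE) in the 5 comparisons of stages, first named stage minus second; filled points were called and open points were not. Cyp26a1 at 6.94 in HB against ES is the largest change, and no point is filled in HP against HE2.

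Further genes of the pathway were taken from lists fixed by function. Of 7 tested genes for uptake and storage, 1 was called lower in HB than in ES (17.3% of all genes tested), 2 were lower in HE1 than in HB (8.19%), 1 was higher in HE2 than in HE1 (3.26%), and in HP against HE1 2 were higher and 1 lower (5.35% and 11.2%). These included Lrat, which esterifies retinol for storage (22 and 14 counts in ES, 1 and 1 at HB), Stra6l (43 and 38 counts at HB, 0 in both HE1 libraries), Rbp4, the serum carrier of retinol (log2 fold change -2.19 for HE1 against HB and -2.31 for HP against HE1), Rbp2, an intracellular retinol carrier (1 and 0 counts at HE1, 13 and 14 at HE2, 21 and 10 at HP), and Bco1, which cleaves beta-carotene (log2 fold change 3.66 for HP against HE1). Of these calls, that of Stra6l held without each library in turn. Lrat was lost without any 1 of the 4 libraries, Rbp4 in HE1 without the second HB or first HE1 library, and Rbp2 in HE2 without the second HE1 library or either HE2 library. In HP, Rbp2 and Rbp4 were lost without the second HE1 or first HP library, Rbp2 also without the second HP library, and Bco1 without the first HP library. Rbp4 was -2.91 in HE1 without the second HE1 library, and in HP it ran from -3.26 without the second HP library to -1.59 without the second HE1 library, where Bco1 was 4.71. Of 14 tested genes for the oxidation and reduction of retinol and retinaldehyde, 0 were called higher and 2 lower from ES to HB, beside 11.5% and 17.3% of all genes tested, namely Rdh1 (log2 fold change -3.29) and Adh7 (70 and 21 counts in ES, 0 in both HB libraries). From HB to HE1, 5 were higher and 1 lower, beside 12.7% and 8.19% of all genes tested, with a median log2 fold change of 0.35 against 0.04. The 5 were Rdh10, the main retinol dehydrogenase of the embryo (1.02 on the log2 scale), Dhrs9 (4.18), the retinaldehyde dehydrogenases Aldh1a1 (3.90) and Aldh1a3 (2.35), and Adh7, which had 0 counts in both HB libraries and 6 and 32 in HE1. Against a floor of 3 counts per library Adh7 was at least 7.13-fold higher in HE1, and at least 2.75-fold higher with the first HE1 library alone. The one lower was Rdh11 (-1.86); it and Rdh10 were named after their values were seen. Aldh1a1 and Aldh1a3 had means of only 0.955 and 1.19 CPM in HE1. The calls of Rdh11, Dhrs9 and Aldh1a1 held without each library in turn, that of Dhrs9 at 5.20 without the first HB library and 3.06 without the second HE1 library and that of Aldh1a1 at 4.67 without the second HB library. Aldh1a3 was lost without any 1 of the 4 libraries, Adh7 without either HB or the second HE1 library, and Rdh10 without the second HB or the first HE1 library. Later, Dhrs4 was called higher in HE2 than in HE1 (1.05), and in HP against HE1 Dhrs4 (1.10) and Aldh1a7 (3.67) were higher and Aldh1a3 (-2.72) lower. Of these, Aldh1a7 held without each library in turn, at 4.42 without the second HE1 library. Dhrs4 was lost in HE2 without the second HE1 or second HE2 library and in HP without the second HE1 or first HP library, and Aldh1a3 without the second HE1 library or either HP library.

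Cyp26c1, the third gene of the Cyp26 family, was called higher in HB than in ES with a log2 fold change of 2.49, at 1.82 and 1.97 CPM in HB, a call lost without the second ES library. Among the 3 retinoid X receptor genes, 1 was called higher from ES to HB and 1 lower from HB to HE1, beside 11.5% and 8.19% of all genes tested. Both calls were those of Rxrg, with log2 fold changes of 3.29 and -4.11, the latter being -6.59 without the first and -3.17 without the second HE1 library. Rxra and Rxrb, at means of 24.9 to 40.1 and 45.1 to 85.7 CPM, were called in no comparison with all libraries. From HB to HE1, Rxrb was called lower without the second HB library (-1.05, adjusted p = 0.0119) or the first HE1 library (-1.16, adjusted p = 0.00245). Of 4 further genes for carriers and receptors, 3 were called higher from ES to HB and 2 lower from HB to HE1, beside 11.5% and 8.19% of all genes tested. Fabp5, a fatty acid binding protein that can also carry retinoic acid, rose 1.93 on the log2 scale from ES to HB and fell by 1.06 to HE1, the latter call being lost without the second HB or the first HE1 library. The nuclear receptor gene Rora followed the same course with 2.91 and -1.95, and Rorb had 1 and 0 counts in ES and 17 and 28 in HB. Of 11 co-regulator genes, 1 was called higher from ES to HB, Nrip1 (1.18), beside 11.5% of all genes tested, and 1 lower from HB to HE1, the coactivator gene Ncoa1 (-1.41), beside 8.19%. In HP against HE1, Ncoa1 was the only one called (1.09), beside 5.35% called higher, and was not called without the second HE1 library.

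Genes known as targets of retinoic acid in embryos and cell lines were listed last, 22 genes of which 17 were tested. From ES to HB, 9 were called higher and 1 lower, beside 11.5% and 17.3% of all genes tested, with a median log2 fold change of 2.02 against 0. Among the higher genes were the homeobox gene Hoxb3 (6.12) and the zinc finger gene Zfp703 (5.82), as well as Hoxb5, which had 0 counts in both ES libraries and was at least 15.9-fold higher in HB. Stra8 moved the other way, with 64 and 31 counts in ES and 0 in both HB libraries. From HB to HE1, 8 were higher and 2 lower, beside 12.7% and 8.19% (median 1.27 against 0.04), led among the higher genes by Meis1 (3.43) and Hoxb5 (3.17). The 2 lower genes were Hoxb1 (-5.24, and -5.98 without the second HE1 library) and Zfp703 (-1.26), the latter named after its value was seen. From HE1 to HE2, 1 was higher and 2 were lower, beside 3.26% and 5.38% (median -1.31 against -0.08): Meis1 rose by 1.36 while Meis2 and Zfp703 fell by 1.79 and 1.31. Meis2 was -2.68 without the first and -1.23 without the second HE2 library. Hoxb3 and Hoxb4, at -1.62 and -0.98 and not called, were -2.26 and -1.67 without the first HE2 library. In HP against HE1, 1 was higher and 7 were lower, beside 5.35% and 11.2% (median -1.90 against -0.02), among them Hoxb5 (-3.57) and Hoxb3 (-3.10). The medians of the target list and of the oxidation and reduction list were the same, to 2 decimals, with genes at 0 counts in a stage set to their bound. Without each library in turn, 8 of the 10 calls from ES to HB were kept, 6 of 10 from HB to HE1, 0 of 3 from HE1 to HE2 and 6 of 8 in HP against HE1. Hoxb3 in HB against ES was 5.16 without the first and 7.64 without the second ES library. Hoxb5 was 2.06 without the first and 3.78 without the second HE1 library in HE1 against HB, and -2.48 and -4.18 in HP against HE1. Without the second HE1 library, Meis1 and Zfp703 were lost in HE2 against HE1 and Meis1 in HP against HE1, while all 10 calls from HB to HE1 were kept. Markers of the cells in each stage moved over the same comparisons: all 8 of the primitive streak and early mesoderm were called higher from ES to HB (median 6.70), and all 8 of the endothelium higher from HB to HE1 (median 3.17) and 7 of them lower in HP against HE1 (median -2.66). Also higher from HB to HE1 were 4 of 6 smooth muscle and mesenchyme markers (median 4.05) and 4 of 4 erythroid markers (median 4.71). The summed level of the endothelial markers was 268 to 315 CPM at HB, 2157 and 3715 at HE1 and 714 to 744 at HP, and the part of these cells in the levels of the target genes was not tested. Several genes of the list are known to respond to other signals as well.

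**Figure D4:**
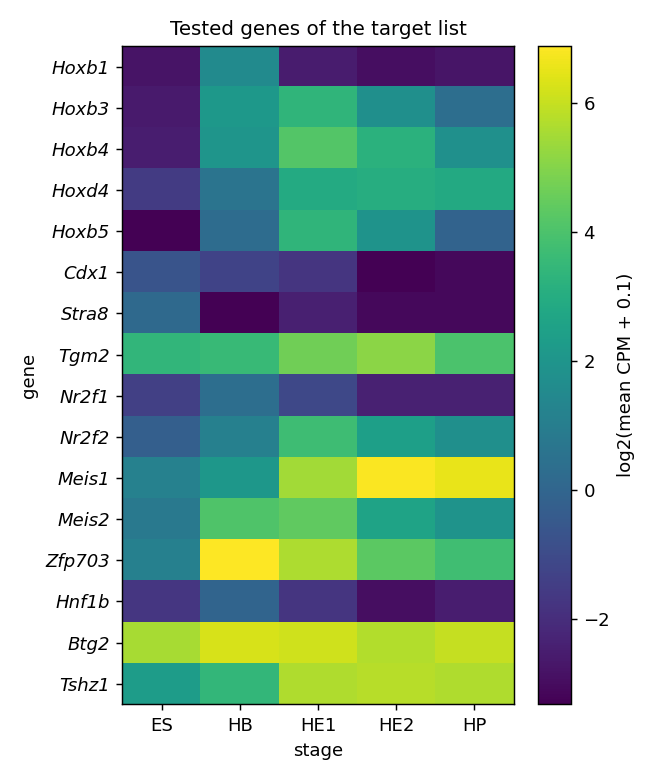
Mean level of 16 of the 17 tested genes of the target list at each stage (n = 2 libraries), as log2 of the mean CPM plus 0.1, from dark (low) to yellow (high). Zfp703 is highest at HB, Hoxb3, Hoxb4 and Hoxb5 at HE1, and Meis1 at HE2.

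The genes most like each of the 9 over the 10 libraries were found among 6440 genes by the correlation of log2 CPM, given as a description. For Rarg these were Nid2 (r = 0.996), Mmp11 and Cyb561, for Dhrs3 Vrk2 (r = 0.995), Spsb2 and Hcls1, and for Rara Fgfr1 (r = 0.992) and Rbpms. Crabp1 was most like Patj (r = 0.992), Cyp26a1 most like Nf1 (r = 0.989), Cyp26b1 most like Usp40 (r = 0.982) and Aldh1a2 most like Ccdc136 (r = 0.966). Crabp2 and Rarb had no partner above 0.908 and 0.870. All points share the 5 stages, and ranking by Spearman's rho named only 2 of the same 27 genes.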

How the data were processed

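Nuclear RNA-seq libraries were prepared with rRNA depletion and a strand-specific kit, and the authors filtered ribosomal reads, trimmed with Trimmomatic, aligned to mm10 with HISAT2 (2.2.1, per the submitters' processing notes) and deposited raw counts per gene from featureCounts (2.0.1, reverse-stranded, Ensembl 102, a pair overlapping several genes counted on each). The authors also deposited a matrix with 1 expression score per gene and stage, a CPM-scale value averaged over libraries, which was used for the gene names and as an alternative for levels. The deposited counts were filtered with filterByExpr and tested with the edgeR (4.0.16) quasi-likelihood test in R 4.3.3 on TMM-scaled library sizes, 1 fit over all 10 libraries with stage as the term and Benjamini-Hochberg adjustment over 22596 genes. A gene was called at an adjusted p under 0.05 and at least 2-fold. The study tested with limma-voom, here an alternative (limma 3.58.1), as was DESeq2 (1.42.0). CPM were computed on the same library sizes, and divided by exon length to compare genes. A count of 3 corresponded to 0.0532 to 0.126 CPM on these sizes, which covers counting error only. The edgeR, limma-voom and DESeq2 steps were tested on simulated data. Replicate numbers were not taken as pairs: the deviations of libraries with the same number correlated between stages from -0.316 to 0.213. The 9 genes, the other lists and the tests were chosen with earlier results of these data known. All 9 genes are named; from each other list, up to 4 called genes with the largest change in a comparison, else those with the highest level. Similar genes were sought among tested genes with a stage mean of at least 10 CPM and a range of at least 1 (log2) between stages. One chromosome was left out of the promoter search. A gene of the target list, which is kept in its counts and medians, and a gene similar to Rara are not reported here.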

Additional observations from a re-analysis of the deposited data

How the results depend on the processing

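Of the log2 fold changes of the 9 genes under the alternatives, 431 kept their direction and their side of the threshold, 21 gained a call, 22 lost one and 15 turned their direction, none of the last being a called change. With scaling to total counts, Crabp2 in HE1 against HB turned to 0.0376. The other 14 turned when 1 library was left out, a fit that assumes the lone library of a stage varies like the others. In HE1 against HB these fits ran from -0.65 to 0.33 for Crabp2 and from -0.041 to 0.23 for Rarg, and in HE2 against HE1 from -2.45 to 0.36 for Aldh1a2. In HP against HE2 they ran from -0.75 to 0.50 for Aldh1a2, from -2.69 to 0.45 for Cyp26a1, from -0.89 to 1.91 for Crabp1 and from -0.69 to 0.24 for Rarb. In HP against HE1 they ran from -2.70 to 0.11 for Aldh1a2, from -0.20 to 1.28 for Cyp26b1, from -1.25 to 0.13 for Crabp2 and from -0.086 to 2.88 for Rarb. Aldh1a2, Cyp26a1 and Rarb in HP against HE2 turned without the first HE2 library. The cause was not tested.

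Out of the 9 genes, leaving out each library gave 3 to 3 calls in HB against ES, 2 to 5 in HE1 against HB, 1 to 6 in HE2 against HE1, 0 to 3 in HP against HE2 and 3 to 6 in HP against HE1. A 4-fold threshold gave 3 in HE2 against HE1 and 2 in HP against HE1, by its construction. In HE2 against HE1, a fit of only the 4 libraries compared gave 2 calls. In HP against HE2, DESeq2 called 1 of the 9 genes and the fit without a filter 2. Replicate numbers are shared between stages but did not pair the libraries, and the replicate block gave 3 calls among the 9 genes in HE2 against HE1 in place of 5, Dhrs3 and Crabp1 missing the threshold with adjusted p-values of 0.0521 and 0.0586.

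Over all genes tested, the 4-fold threshold left 4029, 2594, 900 and 2086 calls of 6507, 4722, 1953 and 3735 in HB against ES, HE1 against HB, HE2 against HE1 and HP against HE1. In HE2 against HE1 the fit without a filter called 3818 genes and the 4-library fit 535. In HP against HE2, with 0 calls, limma-voom called 62, DESeq2 301 and the fit without a filter 534. Leaving out each library gave 4792 to 5175, 2804 to 5553, 420 to 4295, 0 to 526 and 1905 to 5460 calls in the order above, with HP against HE2 as the fourth. Ranking similar genes by Spearman's rho kept 2 of 27. The low counts of Rarb, and of Aldh1a2 and Crabp1 from HE1 on, limit what a change in them can show.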
